A study of Homo sapiens with 8 samples.

Results

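Amino acid transporters of the plasma membrane carry essential amino acids, glutamine, cystine and arginine into the cell, and 10 of them were followed here by RNA-seq across 4 genotypes of U2OS cells, an established human osteosarcoma line. The 10 genes, SLC7A5, SLC3A2, SLC7A6, SLC7A11, SLC7A1, SLC1A5, SLC1A4, SLC38A1, SLC38A2 and SLC43A1, were chosen by symbol from a list of such carriers. All 10 were found among the 19414 genes listed, and all 10 passed the filter on low values, which left 9673 genes for testing. Each genotype had 2 libraries: both Zab and overexpressed MYC (Zab+MYC), overexpressed MYC alone (MYC), Zab alone (Zab), and wild type (WT). Zab is written for Zαβ, the name in general use for 2 domains of ADAR1, an enzyme that edits RNA, which bind left-handed Z-form nucleic acid. The labels do not say which promoter drives either transgene, whether a line is 1 clone, or whether the 2 libraries of a genotype came from separate cultures.

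The carriers work by different routes. SLC3A2 (CD98 heavy chain) is a single-pass glycoprotein that brings several light chains to the membrane. Among these light chains are SLC7A5 (LAT1), which exchanges leucine and other large neutral amino acids, SLC7A6 (y+LAT2), which exchanges arginine for neutral amino acids, and SLC7A11 (xCT), which takes up cystine in exchange for glutamate. SLC7A1 (CAT1) moves arginine, lysine and ornithine without a heavy chain. SLC1A5 (ASCT2) and SLC1A4 (ASCT1) exchange small neutral amino acids with sodium, glutamine being a main substrate of SLC1A5. SLC38A1 (SNAT1) and SLC38A2 (SNAT2) take up glutamine and alanine together with sodium, and SLC43A1 (LAT3) lets leucine and related amino acids pass without sodium. As general background, MYC is a transcription factor that binds the E-box CACGTG with its partner MAX, and ATF4 is the factor that raises many of these carriers when amino acids run short.

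Promoter windows from RefSeq on GRCh38.p14, 250 bases before to 50 bases after a start, were at hand for 9 of the 10 genes, as 16 windows because several genes have more than 1 start. The windows of SLC3A2, SLC7A5 and SLC7A1 are shown because these are 3 of the 4 carriers that were called higher than in WT in each of the other genotypes, SLC1A5 being the other. SLC3A2 is shown for 1 of its 3 starts. Capitals mark matches, on either strand, to CACGTG, to the related CACGCG, to TGATGNAA, the core of the element through which ATF4 acts with C/EBP factors, and to TGACNNNGC, the core of the antioxidant response element. The SLC3A2 window shown is the only 1 of its 3 with TGATGNAA or TGACNNNGC. Of its other windows 1 holds CACGCG and 1 holds no match.
SLC7A5 (chr16:87869458-87869757, minus strand): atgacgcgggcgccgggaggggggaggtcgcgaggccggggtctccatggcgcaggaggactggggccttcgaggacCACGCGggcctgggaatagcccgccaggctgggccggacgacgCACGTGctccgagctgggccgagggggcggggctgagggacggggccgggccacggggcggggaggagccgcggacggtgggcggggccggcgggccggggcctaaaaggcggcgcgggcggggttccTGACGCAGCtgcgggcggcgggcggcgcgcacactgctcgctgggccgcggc
SLC3A2 (chr11:62881449-62881748, plus strand): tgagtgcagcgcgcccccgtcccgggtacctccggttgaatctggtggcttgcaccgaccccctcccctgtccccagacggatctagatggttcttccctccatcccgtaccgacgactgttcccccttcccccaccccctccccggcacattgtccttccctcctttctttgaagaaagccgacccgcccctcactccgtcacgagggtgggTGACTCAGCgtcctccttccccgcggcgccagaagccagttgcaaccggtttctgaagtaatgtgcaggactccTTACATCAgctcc
SLC7A1 (chr13:29595639-29595938, minus strand): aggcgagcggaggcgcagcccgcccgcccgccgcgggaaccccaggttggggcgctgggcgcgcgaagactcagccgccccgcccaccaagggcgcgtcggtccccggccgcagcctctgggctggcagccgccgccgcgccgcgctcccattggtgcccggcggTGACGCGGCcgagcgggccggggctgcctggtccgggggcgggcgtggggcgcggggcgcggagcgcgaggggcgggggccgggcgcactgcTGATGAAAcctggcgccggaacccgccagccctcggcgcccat

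CACGTG stood in 3 of the 16 windows, those of SLC7A5 (130 bases before the start), of 1 SLC1A5 start (50 bases before) and of 1 SLC43A1 start (112 bases before). Their surroundings are shown so that the letters on both sides of the E-box can be compared.
SLC7A5: cgacgCACGTGctccg
SLC1A5: gtggtCACGTGgacag
SLC43A1: cgagtCACGTGcgcgt
Of all 35116 promoter windows of this length, 7.26% held CACGTG, 11.4% CACGCG, 3.62% TGATGNAA and 13.3% TGACNNNGC. CACGCG was found in 4 of the 16 windows, and in that of SLC43A1 a match directly follows the CACGTG without overlap. TGATGNAA was found in 5 windows, of SLC3A2, SLC1A5, SLC1A4, SLC7A1 and SLC38A1, and TGACNNNGC in 5. The matches in SLC1A4 and SLC38A1 are shown as examples because both lie within 10 bases of a start.
SLC1A4: cccgtTTGCATCAtctcc
SLC38A1: ccgaaTGATGAAAaggga
A match describes letters and not binding. The windows were not matched to the transcripts that were counted, so that a window of SLC1A5 or SLC3A2 need not belong to the transcript measured.

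Values are exon tags as CPM (counts per 1000000 tags of a library) after TMM scaling, which corrects for differences in library composition. The deposited tables give a scaled signal, from which 686992 to 1326166 exon tags per library were recovered, so that the lower carriers rest on few tags. With the tag size assumed below, exon tags averaged 69.1% of the library total in Zab+MYC, 76.0% in MYC, 60.8% in Zab and 70.9% in WT. The part of this difference in the carrier results was not tested. MYC, the targeted gene, had 707 and 705 CPM in Zab+MYC, 1237 and 1289.6 CPM in MYC, 230 and 194 CPM in Zab, and 72.6 and 94.8 CPM in WT. ADAR, whose tags can include the Zab transcript, had 1068 and 1019 CPM in Zab+MYC, 247 and 230.4 CPM in MYC, 6003 and 6198 CPM in Zab, and 264 and 269.6 CPM in WT. Both transgene readouts were thus lower in Zab+MYC than in the line with 1 of them, and the dose of each cannot be told apart from the presence of the other. In every genotype the 2 libraries differed by about counting noise, with a chi-square per degree of freedom between 0.997 (Zab+MYC) and 1.025 (WT). Separate cultures and repeat runs of 1 library cannot be told apart, and the p-values measure only this spread. Of 11 osteoblast and mesenchymal markers, VIM, SPARC and COL1A1 were well detected, while COL1A2 and IBSP had 1 tag each and SP7 had 2 tags in all libraries together. Their summed level was 7629 to 7755 CPM in Zab+MYC, 5317 to 5478 CPM in MYC, 8489 to 8907 CPM in Zab and 10109 to 10305 CPM in WT, and its part in the carrier results was not tested. Markers of epithelial cells, leukocytes and endothelium summed to at most 5.05, 1.46 and 5.02 CPM in any library.

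As a sum, the carriers made up a larger share of exon tags in all 3 engineered genotypes than in WT, which does not hold for each carrier. Together they took 0.124% to 0.128% of exon tags in Zab+MYC, 0.140% to 0.146% in MYC, 0.108% to 0.110% in Zab, and 0.0648% to 0.0701% in WT. Most of this is SLC3A2, SLC7A5 and SLC1A5. A gene was called where the Benjamini-Hochberg adjusted p from limma, over all 9673 genes, was under 0.05. In MYC versus WT, 6 carriers were called higher and 1 lower, where 58.2% of all tested genes were called, 27.8% higher and 30.4% lower. In Zab versus WT, 5 were called higher and 0 lower, where 24.4% of all genes were called, 13.1% higher and 11.3% lower. In Zab+MYC versus WT, 6 were called higher and 0 lower, where 42.3% of all genes were called, 21.6% higher and 20.6% lower.

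**Figure D1:**
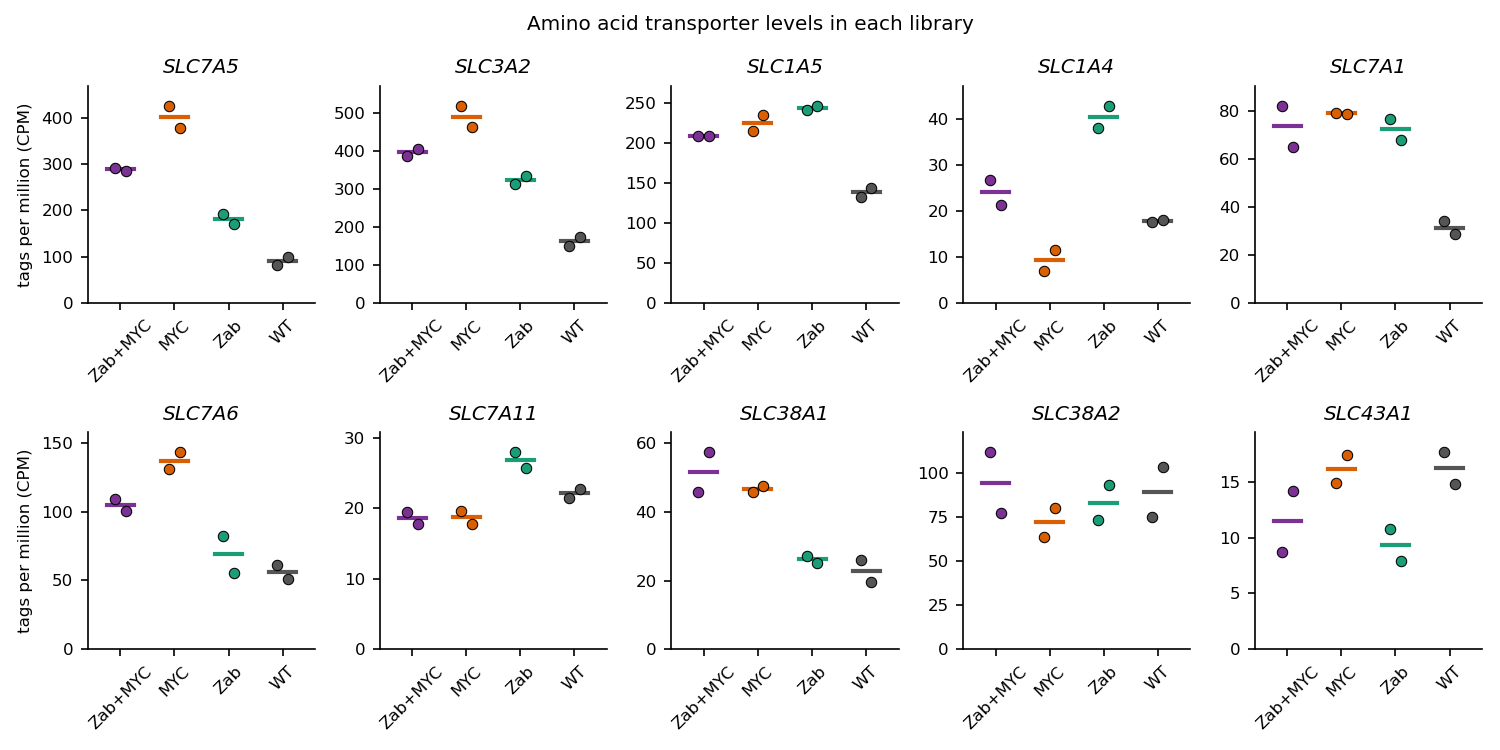
Level of each of the 10 transporters in each library, in CPM (vertical axes starting at 0), by genotype; points are libraries and bars the mean of 2. SLC7A5 sits at 284 and 292 CPM in Zab+MYC, 379 and 426 CPM in MYC, 169.5 and 192 CPM in Zab and 82.0 and 99.1 CPM in WT, while the libraries of SLC38A2 overlap in every pair of genotypes.

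Between engineered genotypes fewer carriers were called. In Zab+MYC versus MYC, 1 was higher and 2 were lower, where 20% of all genes were called, 11.8% higher and 8.14% lower. In Zab+MYC versus Zab, 4 were higher and 0 lower, where 26.8% were called, 14.3% higher and 12.5% lower. Across the 10 carriers the median log2 fold change was 0.84 in MYC versus WT, 0.54 in Zab versus WT, 0.73 in Zab+MYC versus WT, -0.11 in Zab+MYC versus MYC and 0.20 in Zab+MYC versus Zab, and that of all tested genes lay between -0.04 and 0.00 in the same 5 comparisons. These comparisons share libraries, so their counts are not independent of each other. On the deposited scale, taken without TMM factors, the median of all genes shifts by -0.52 in Zab versus WT, -0.31 in Zab+MYC versus MYC, 0.15 in Zab+MYC versus Zab and -0.37 in Zab+MYC versus WT, and library totals shift it by -0.12 in MYC versus WT. The calls over all genes in Zab versus WT were then 251 higher and 4767 lower, in place of 1271 and 1092, those in Zab+MYC versus MYC 575 and 2947 in place of 1146 and 787, those in Zab+MYC versus Zab 2159 and 783 in place of 1385 and 1207, and those in Zab+MYC versus WT 1020 and 3935 in place of 2092 and 1996. Scaling by library totals gave 1335 and 570 in Zab+MYC versus MYC. Fold changes below are relative to the bulk of genes.

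Non-overlap of libraries is a weak mark here, since it was common among all genes. The libraries did not overlap for 8 of the 10 carriers in MYC versus WT, where 78.8% of all genes did not. They did not overlap for 7 carriers in Zab versus WT (59% of all genes), 6 in Zab+MYC versus MYC (60.2%), 7 in Zab+MYC versus Zab (60.8%) and 9 in Zab+MYC versus WT (70.2%).

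SLC3A2, the heavy chain, was the most abundant carrier per length, with a mean of 159.6 CPM per kb of exon over all libraries. SLC1A5 followed with 70.9 and SLC7A5 with 53.0 CPM per kb, then SLC38A2 with 17.9, SLC7A6 with 14.6 and SLC7A1 with 8.76 CPM per kb. SLC43A1, SLC1A4 and SLC38A1 had 5.48, 5.38 and 4.67 CPM per kb, and SLC7A11 was last with 2.24 CPM per kb. The 3 carriers before SLC7A11 lie too close to be ranked.

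SLC3A2 (hg19 chr11:62623581-62656332, plus strand) had 388 and 405 CPM in Zab+MYC, 520.3 and 463 CPM in MYC, 313 and 334 CPM in Zab, and 151 and 175 CPM in WT. The 4 genotypes did not overlap, with MYC highest and WT lowest. It was 2.998-fold higher in MYC relative to WT (log2 1.58 ± 0.09 SE, adjusted p 9.3e-26), 1.98-fold higher in Zab relative to WT (0.99 ± 0.09, 7.8e-15) and 2.43-fold higher in Zab+MYC relative to WT (1.28 ± 0.09, 1.7e-20). The sizes depended on the setting. On the deposited scale the log2 difference in Zab versus WT was 0.45, still called (adjusted p 2.49e-05). Over all settings the log2 values ran from 0.89 to 1.39 in Zab+MYC versus WT. Those in Zab+MYC versus MYC ran from -0.63 to -0.25. With TMM scaling, SLC3A2 in Zab+MYC fell to 0.809 of its MYC level (log2 -0.31 ± 0.09, adjusted p 0.0099). It stood 1.22-fold above its Zab level (0.29 ± 0.09, 0.01). The first of these small differences lost its call without Zab+MYC replicate 1 (adjusted p 0.0642) or MYC replicate 1 (0.157), the second without Zab+MYC replicate 2 (0.103), without Zab replicate 1 (0.088) and in DESeq2 (0.149).

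SLC7A5 (hg19 chr16:87863629-87903113, minus strand), the leucine-carrying light chain, showed the same order with a wider span. Its libraries gave 292 and 284 CPM in Zab+MYC, 426 and 379 CPM in MYC, 192 and 169.5 CPM in Zab, and 82.0 and 99.1 CPM in WT, with no overlap between genotypes. The transcript was 4.38-fold higher in MYC relative to WT (log2 2.13 ± 0.11 SE, adjusted p 2.9e-28), above the value of 98.9% of tested genes. Summed tags were 934 in MYC and 158 in WT, a ratio of 4.40 per scaled total with an exact 95% counting interval of 3.72 to 5.24. It was 1.98-fold higher in Zab relative to WT (0.99 ± 0.11, 1.5e-11) and 3.15-fold higher in Zab+MYC relative to WT (1.65 ± 0.11, 6.6e-22). Zab+MYC fell to 0.719 of the MYC level (-0.48 ± 0.11, 0.00071) and was 1.59-fold above the Zab level (0.67 ± 0.11, 1.2e-06). These 5 calls held in all 20 settings in which each was recomputed, but their sizes depended on the setting. The log2 difference ran from 0.45 to 1.12 in Zab versus WT and from -0.81 to -0.42 in Zab+MYC versus MYC. Near-identical pseudogene copies of SLC7A5 exist in the human genome, and tags of theirs could be counted with it.

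The ratio of SLC7A5 to SLC3A2 was taken within each library. SLC7A5 per kb stood at 0.364 and 0.340 of SLC3A2 per kb in Zab+MYC, at 0.397 in both MYC libraries, at 0.297 and 0.209 in Zab, and at 0.264 and 0.275 in WT. The MYC libraries were highest and those of Zab and WT overlapped. The transcript of SLC3A2 that was counted varied between libraries, with 1868 to 2201 exon bases, and the shortest was used in the Zab library with the ratio of 0.209. SLC7A5, SLC7A6 and SLC7A11 together stayed below SLC3A2 in every library. The Zab+MYC libraries gave 0.473 and 0.437 of its level per kb, the MYC libraries 0.493 and 0.515, the Zab libraries 0.410 and 0.273, and the WT libraries 0.438 and 0.407. For this sum MYC was again highest, while the libraries of Zab+MYC and of Zab overlapped those of WT.

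**Figure D2:**
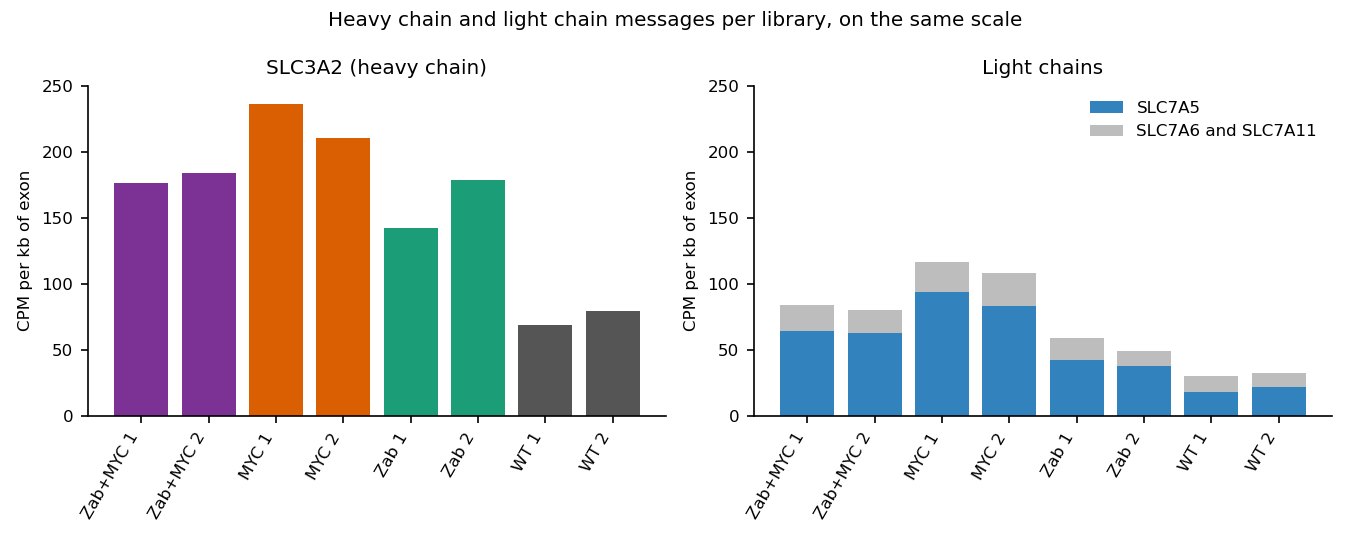
Heavy chain SLC3A2 (left) and light chains SLC7A5, SLC7A6 and SLC7A11 (right) in each library, in CPM per kb of exon on the same axis; genotypes run from Zab+MYC to WT. SLC7A5 makes up 60.3% to 80.5% of the light chain bars, and no light chain bar reaches the heavy chain bar of its library.

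SLC7A6 (hg19 chr16:68298429-68335722, plus strand), the arginine-exchanging light chain, had 109 and 101 CPM in Zab+MYC, 131 and 143 CPM in MYC, 82.5 and 55.7 CPM in Zab, and 61.2 and 50.9 CPM in WT. The MYC and Zab+MYC libraries stood apart from the rest, and Zab and WT overlapped. It was 2.40-fold higher in MYC relative to WT (log2 1.26 ± 0.17 SE, adjusted p 8.1e-10), 1.85-fold higher in Zab+MYC relative to WT (0.89 ± 0.17, 9.2e-06) and 1.53-fold higher in Zab+MYC relative to Zab (0.61 ± 0.17, 0.0034). The last call was lost without Zab replicate 2 (0.199), without Zab+MYC replicate 1 (0.0596) and in DESeq2 (0.124). Between Zab and WT the log2 difference was 0.27 with a 95% interval of -0.06 to 0.61, called (0.56, adjusted p 0.0234) only when Zab replicate 2 was left out, and negative (-0.25) on the deposited scale. In Zab+MYC versus MYC it was -0.38 (95% interval -0.71 to -0.05, adjusted p 0.1), called on the deposited scale (-0.70, 0.000452), in edgeR (-0.40, 0.015), with these libraries alone (-0.36, 0.0312) and without Zab replicate 1 (-0.42, 0.046). The gene overlaps SLC7A6OS on the opposite strand by 3786 bases (hg19 chr16:68331937-68335722). SLC7A6OS had 109 and 94.3 CPM in Zab+MYC, 139 and 152 CPM in MYC, 78.2 and 55.1 CPM in Zab, and 63.7 and 54.6 CPM in WT, almost the values of SLC7A6. The sources used here do not say whether tags were counted by strand, so the 2 genes cannot be told apart and the values of SLC7A6 are uncertain.

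SLC7A11 (hg19 chr4:139085251-139163503, minus strand), the cystine carrier, had 19.5 and 17.7 CPM in Zab+MYC, 19.6 and 17.8 CPM in MYC, 28.0 and 25.7 CPM in Zab, and 21.5 and 22.8 CPM in WT. The 2 Zab libraries were highest and those of Zab+MYC and MYC overlapped. No comparison called it. With 12.5 to 22.5 tags per library the intervals are wide: the log2 difference in MYC versus WT was -0.22 (95% interval -0.82 to 0.38), in Zab versus WT 0.26 (-0.34 to 0.86) and in Zab+MYC versus Zab -0.49 (-1.09 to 0.11). The first interval holds a level 1.5-fold lower and the second a level 1.5-fold higher, so that differences of this size in those directions are not excluded.

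SLC7A1 (hg19 chr13:30083551-30169825, minus strand), the arginine and lysine carrier, was higher in all 3 engineered genotypes, to about the same extent with TMM scaling. Its libraries gave 82.2 and 65.2 CPM in Zab+MYC, 79.4 and 78.9 CPM in MYC, 76.7 and 67.9 CPM in Zab, and 34.1 and 28.6 CPM in WT. WT lay below every other library, while Zab+MYC overlapped both MYC and Zab. Against WT it was 2.26-fold higher in Zab+MYC (log2 1.18 ± 0.19 SE, adjusted p 3.9e-07), 2.44-fold higher in MYC (1.29 ± 0.19, 2.1e-08) and 2.23-fold higher in Zab (1.16 ± 0.19, 1.4e-06). The 3 calls held in all 20 settings in which each was recomputed, but their sizes depended on the setting. Against WT the log2 values ran from 0.81 to 1.35 in Zab+MYC, from 1.16 to 1.42 in MYC and from 0.64 to 1.28 in Zab. The difference was not called in Zab+MYC versus MYC (-0.11, 95% interval -0.49 to 0.27) or in Zab+MYC versus Zab (0.02, -0.36 to 0.40).

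SLC1A5 (hg19 chr19:47278140-47291851, minus strand), the glutamine exchanger, had 208 and 208 CPM in Zab+MYC, 214 and 234 CPM in MYC, 240.3 and 246 CPM in Zab, and 132 and 144 CPM in WT. Zab was highest and the genotypes did not overlap, although Zab+MYC and MYC lay close. It was 1.62-fold higher in MYC relative to WT (log2 0.69 ± 0.11 SE, adjusted p 8.2e-08), 1.75-fold higher in Zab relative to WT (0.81 ± 0.11, 6.7e-09) and 1.499-fold higher in Zab+MYC relative to WT (0.58 ± 0.11, 6.6e-06). On the deposited scale the last difference was 0.20 and no longer called (adjusted p 0.114), and that of Zab versus WT was 0.27 (0.0312). Zab+MYC differed from MYC by -0.11 (95% interval -0.32 to 0.11) and from Zab by -0.23 (-0.44 to -0.01, adjusted p 0.12), neither of which was called. The first was -0.44 and called on the deposited scale (adjusted p 0.000841).

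SLC1A4 (hg19 chr2:65215613-65250999, plus strand), the alanine, serine and cysteine exchanger of the same family, went the other way with MYC. It had 26.8 and 21.3 CPM in Zab+MYC, 7.01 and 11.5 CPM in MYC, 38.0 and 42.8 CPM in Zab, and 17.7 and 18.0 CPM in WT. No genotypes overlapped, with Zab highest and MYC lowest, on 7.5 to 35 tags per library. The transcript that was counted varied between libraries, and its part in these levels was not tested. MYC was 1.80-fold lower than WT (log2 -0.85 ± 0.31 SE, adjusted p 0.016), Zab 2.14-fold higher than WT (1.09 ± 0.31, 0.0055) and Zab+MYC 2.35-fold higher than MYC (1.23 ± 0.31, 0.0023). All 3 calls were lost in some settings, in most of them at a similar fold change. That of MYC versus WT was lost without MYC replicate 1, where the fold change was smaller (log2 -0.52, adjusted p 0.254), and at a similar one without WT replicate 1 (-0.84, 0.0584) or 2 (-0.83, 0.0624), with no filter (-0.79, 0.0539) and in DESeq2 (-0.90, 0.179). That of Zab versus WT was lost without Zab replicate 2 (1.03, 0.0516), in DESeq2 (1.17, 0.101) and, at a smaller fold change, on the deposited scale (0.59, 0.106). That of Zab+MYC versus MYC was lost without Zab+MYC replicate 1 (1.05, 0.0604) or MYC replicate 1 (0.91, 0.102). Counting both libraries of a genotype as 1 sample, the ratio of MYC to WT was 0.529 (exact 95% counting interval 0.292 to 0.943, 22 and 31 tags).

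The ratio of SLC1A5 to SLC1A4 showed this contrast within each library. Per kb, the Zab+MYC libraries gave ratios of 10.4 and 15.5, the MYC libraries 39.3 and 32.3, the Zab libraries 8.64 and 9.11, and the WT libraries 11.9 and 12.6. The MYC libraries were highest, and Zab+MYC overlapped WT. The transcript of SLC1A4 that was counted varied between libraries, with 3686 to 4548 exon bases, so that its length enters these ratios.

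SLC38A1 (hg19 chr12:46576846-46662826, minus strand), a sodium-coupled glutamine carrier, was higher in the 2 genotypes with overexpressed MYC. It had 45.7 and 57.4 CPM in Zab+MYC, 45.8 and 47.6 CPM in MYC, 27.3 and 25.1 CPM in Zab, and 25.9 and 19.6 CPM in WT. Zab+MYC overlapped MYC, and Zab overlapped WT. It was 1.98-fold higher in MYC relative to WT (log2 0.99 ± 0.25 SE, adjusted p 0.00044), 2.17-fold higher in Zab+MYC relative to WT (1.12 ± 0.25, 0.00013) and 1.89-fold higher in Zab+MYC relative to Zab (0.92 ± 0.25, 0.003). The last call was lost without Zab+MYC replicate 2 (0.0787) and in DESeq2 (0.0959). Zab differed from WT by 0.20 (95% interval -0.29 to 0.69), which was negative on the deposited scale (-0.30). SLC38A1 was counted on 5 different transcripts, of 7617 to 8185 exon bases. The transcript used for both WT libraries was used for no other library, and its part in the differences from WT was not tested.

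SLC38A2 (hg19 chr12:46751971-46766556, minus strand), which lies nearby on the chromosome and is known to rise on amino acid shortage, was called in none of the comparisons. It had 112 and 77.3 CPM in Zab+MYC, 64.0 and 80.5 CPM in MYC, 73.2 and 93.0 CPM in Zab, and 75.1 and 103 CPM in WT. Every pair of genotypes overlapped. Its log2 difference was -0.29 in MYC versus WT (95% interval -0.64 to 0.06) and 0.37 in Zab+MYC versus MYC (0.02 to 0.71, adjusted p 0.14). SLC38A2 was called in some other settings: lower in MYC than in WT with library totals (-0.41, adjusted p 0.0353) and without WT replicate 1 (-0.50, 0.0385), lower in Zab than in WT on the deposited scale (-0.62, 0.00209), and higher in Zab+MYC than in MYC in edgeR (0.40, 0.0497), and higher for the interaction of MYC and Zab on the deposited scale (0.67, 0.0318).

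SLC43A1 (hg19 chr11:57252007-57283175, minus strand), the sodium-independent leucine carrier, was low, with 6.5 to 22 tags per library. It had 8.76 and 14.2 CPM in Zab+MYC, 14.9 and 17.4 CPM in MYC, 10.8 and 7.96 CPM in Zab, and 17.7 and 14.8 CPM in WT. Libraries with Zab were below those without it, and no comparison called the difference. The log2 difference was -0.69 in Zab versus WT (95% interval -1.42 to 0.04, adjusted p 0.17) and -0.46 in Zab+MYC versus MYC (-1.19 to 0.27, 0.41). In MYC versus WT it was -0.003 (-0.73 to 0.73). On the deposited scale the difference in Zab versus WT was called (-1.15, adjusted p 0.0065).

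**Figure D3:**
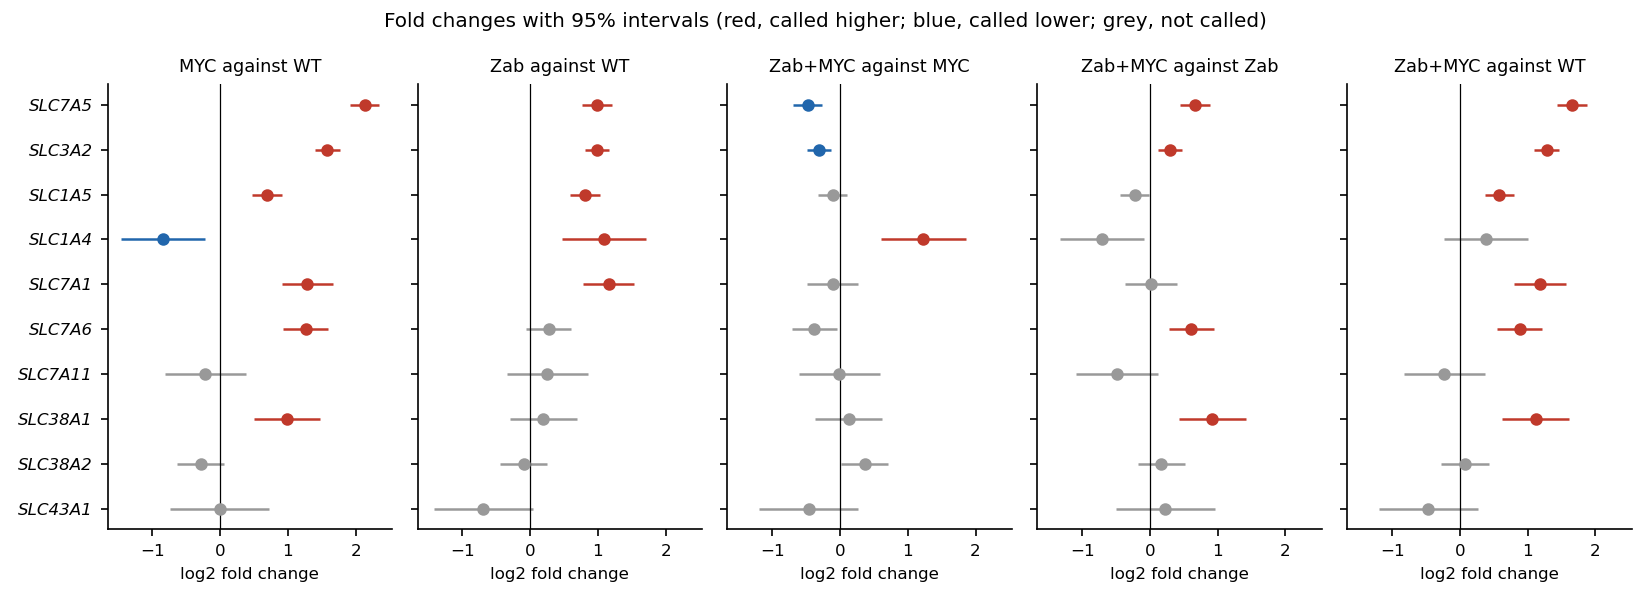
Log2 fold changes of the 10 transporters in 5 comparisons, with 95% intervals from limma; red points are called higher, blue called lower and grey not called. SLC7A5 and SLC3A2 are called in all 5 panels, and SLC7A11, SLC38A2 and SLC43A1 in none.

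Whether the effect of MYC was the same with and without Zab was tested as the difference between both effects, Zab+MYC minus Zab versus MYC minus WT. In this interaction 0 carriers were called higher and 5 lower, where 27.9% of all genes were called, 14.6% higher and 13.3% lower. SLC7A5 was 0.67 higher with MYC in the presence of Zab and 2.13 higher in its absence on the log2 scale, a difference of -1.46 ± 0.15 SE (adjusted p 2.6e-12). The heavy chain SLC3A2 gave 0.29 with Zab and 1.58 without it, a difference of -1.29 ± 0.13 (1.8e-13). SLC7A1 gave 0.02 with Zab and 1.29 without it (-1.27 ± 0.27, 0.00016), and SLC1A5 -0.23 with Zab and 0.69 without it (-0.92 ± 0.15, 1.7e-06). These 4 calls held in each of the 18 to 19 settings in which they were recomputed. SLC7A6 gave 0.61 with Zab and 1.26 without it (-0.65 ± 0.24, 0.03), and this call held in 10 of 18 settings.

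The other carriers gave no call for the interaction, except that SLC38A2 was called higher on the deposited scale (0.67, adjusted p 0.0318). SLC38A1 gained about as much with MYC in the presence of Zab (0.92) as in its absence (0.99), a difference of -0.07 with a 95% interval of -0.77 to 0.63. SLC1A4 was -0.71 with Zab (adjusted p 0.081, and 0.0367 with these libraries alone) and -0.85 without it, a difference of 0.14 (-0.74 to 1.02). For SLC38A2 the difference was 0.46 (-0.04 to 0.95, adjusted p 0.17), for SLC43A1 0.23 (-0.80 to 1.26) and for SLC7A11 -0.27 (-1.11 to 0.58). The median interaction of the 10 carriers was -0.46 and that of all tested genes 0.02. On the deposited scale the median of all genes shifts by 0.21, with 2061 genes called higher and 829 lower in place of 1408 and 1287. The level of MYC itself moves with this result, since it was 3.32-fold higher in Zab+MYC relative to Zab and 14.9-fold higher in MYC relative to WT, and its part in the difference was not tested.

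**Figure D4:**
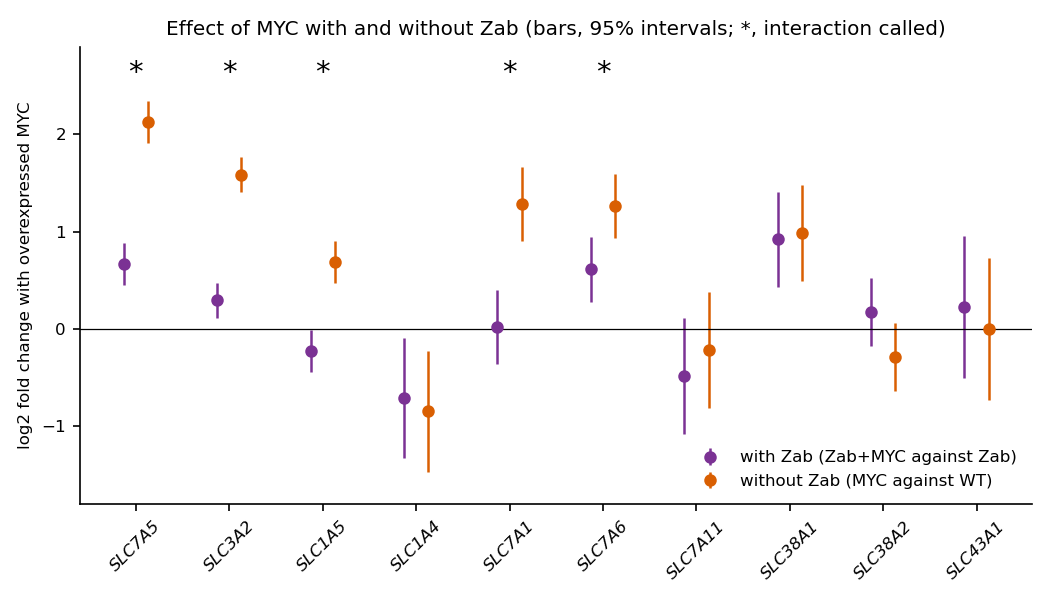
Log2 fold change with overexpressed MYC for each transporter, with Zab (Zab+MYC versus Zab, left point) and without Zab (MYC versus WT, right point); bars are 95% intervals and a star marks a called interaction. For SLC7A5, SLC3A2, SLC1A5, SLC7A1 and SLC7A6 the effect is smaller with Zab, while for SLC38A1 both points lie near 1.

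SLC7A5, SLC3A2, SLC7A1 and SLC7A6 had group means in the order of MYC itself, MYC above Zab+MYC above Zab above WT, as did 18% of all tested genes. Among pairs of carriers, the smallest root mean square difference between patterns, taken on log2(CPM + 2) centred per gene over the 8 libraries, was 0.24 for SLC3A2 and SLC7A1 (Pearson r 0.92), followed by SLC7A6 with SLC38A1 (0.24, r 0.89) and SLC7A5 with SLC3A2 (0.25, r 0.98). SLC1A4 was farthest from SLC7A5 (1.27, r -0.38). All points of these comparisons share the same 8 libraries.

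Among 7224 genes with a mean of at least 20 CPM, the patterns nearest to SLC7A5 were those of PNP, an enzyme of purine salvage, and RABEPK (0.09 and 0.10). Those nearest to SLC3A2 were FAM207A and PPRC1, a coactivator related to PGC-1 (0.07 and 0.08), and those nearest to SLC1A5 were the ribosomal protein gene RPS18 and the complex I subunit gene NDUFA7 (0.05 and 0.07). SLC7A1 lay nearest to CCND2, a D-type cyclin, and CFAP157 (both 0.12). SLC1A4 lay nearest to CDKN1A, the p21 inhibitor of cyclin-dependent kinases, and AMOTL2 (both 0.20). CDKN1A averaged 369 CPM in Zab+MYC, 168 CPM in MYC, 508 CPM in Zab and 269 CPM in WT, the same order as SLC1A4. The nearest genes were SLC7A6OS and QSOX2 for SLC7A6 (0.07 and 0.09), TP53BP1 and FAM104A for SLC7A11 (0.08 and 0.09), POLR3A and DHX15 for SLC38A1 (0.12 and 0.13), TRPC4AP and AKR1A1 for SLC38A2 (0.12 and 0.13), and ERH and SEC63 for SLC43A1 (0.12 and 0.13). SLC7A11, SLC38A2 and SLC43A1 were called in none of the comparisons. Likeness to their patterns cannot be told apart from spread between libraries.

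Of 26 other plasma membrane amino acid carriers only 6 were abundant enough to test. Other settings were not run for this list or for those below, except for ATF4 under other scalings. SLC7A2 (CAT2), another cationic carrier, averaged 28.5 ± 0.25 CPM in Zab+MYC, 36.1 ± 1.74 CPM in MYC, 15.8 ± 0.09 CPM in Zab and 3.68 ± 3.71 CPM in WT (SD, n = 2 each). It was called higher than WT in Zab+MYC (log2 2.60 ± 0.36 SE, adjusted p 4.7e-09), in MYC (2.92 ± 0.36, 6.3e-11) and in Zab (1.82 ± 0.36, 3.9e-05), with a called interaction of -2.14 ± 0.50 (0.00058). SLC6A15, a carrier of branched-chain amino acids and proline, was called higher in MYC than in WT (1.98 ± 0.45, 0.00013). The glycine carrier SLC6A9 was called lower in MYC than in WT (-0.66 ± 0.21, 0.006) and higher in Zab than in WT (0.76 ± 0.21, 0.005), the directions of SLC1A4. The glutamate carrier SLC1A3 was called lower in Zab than in WT (-1.56 ± 0.36, 0.00059). Of 6 internal carriers tested, SLC38A10 was lower in MYC than in WT (-2.02 ± 0.18, 4.4e-16) and SLC66A1, a lysosomal cationic amino acid carrier, higher in Zab than in WT (1.01 ± 0.33, 0.016), and no other was called in either comparison.

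Of the genes of the amino acid shortage response, a list built around ATF4 with 19 members tested, 11 were called higher and 2 lower in Zab versus WT, with a median log2 change of 0.67, where 13.1% and 11.3% of all genes were called. This holds for TMM scaling. On the deposited scale the median of all genes shifts by -0.52 in Zab versus WT, and the list was not recomputed there. In MYC versus WT 9 were higher and 4 lower (median 0.24), where 27.8% and 30.4% of all genes were called. In Zab+MYC versus WT 9 were higher and 3 lower (0.41), where 21.6% and 20.6% of all genes were called. CHAC1, which degrades glutathione, was called higher than WT in the Zab libraries (2.22 ± 0.17 SE, adjusted p 7.3e-18), in MYC (1.54 ± 0.17, 4e-12) and in Zab+MYC (1.42 ± 0.17, 1.2e-10). The transcription factor ATF5 (2.19 ± 0.16, 1.5e-19) and the pseudokinase TRIB3 (1.76 ± 0.16, 1.3e-15) were higher in MYC than in WT. DDIT4, an inhibitor of mTORC1, was lower than WT in MYC (-2.28 ± 0.24, 2.2e-13) and in Zab (-1.48 ± 0.24, 7.5e-07), and so was CEBPB (-0.93 ± 0.13, 2.5e-09 and -0.73 ± 0.13, 5.3e-06). ATF4 itself averaged 549 CPM in Zab+MYC, 627 CPM in MYC, 549 CPM in Zab and 412 CPM in WT. It was called higher than WT in Zab+MYC (0.41 ± 0.07, 1.1e-06), in MYC (0.60 ± 0.07, 1.4e-11) and in Zab (0.41 ± 0.07, 2.7e-06), and lower in Zab+MYC relative to MYC (-0.19 ± 0.07, 0.045). On the deposited scale ATF4 was not called in Zab+MYC versus WT (0.03, adjusted p 0.77) or in Zab versus WT, where its sign turned (-0.13, 0.11), and with library totals it was not called in Zab+MYC versus MYC (-0.13, 0.18). The interaction was called higher for 2 of these genes and lower for 8 (median -0.55), where 14.6% and 13.3% of all genes were called, with CHAC1 at -2.33 ± 0.24 (1.9e-12) and ATF4 at -0.60 ± 0.10 (1.3e-06). In Zab+MYC versus MYC 1 was higher and 2 lower (median -0.03; 11.8% and 8.14% of all genes), and in Zab+MYC versus Zab 3 were higher and 2 lower (-0.22; 14.3% and 12.5%).

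**Figure D5:**
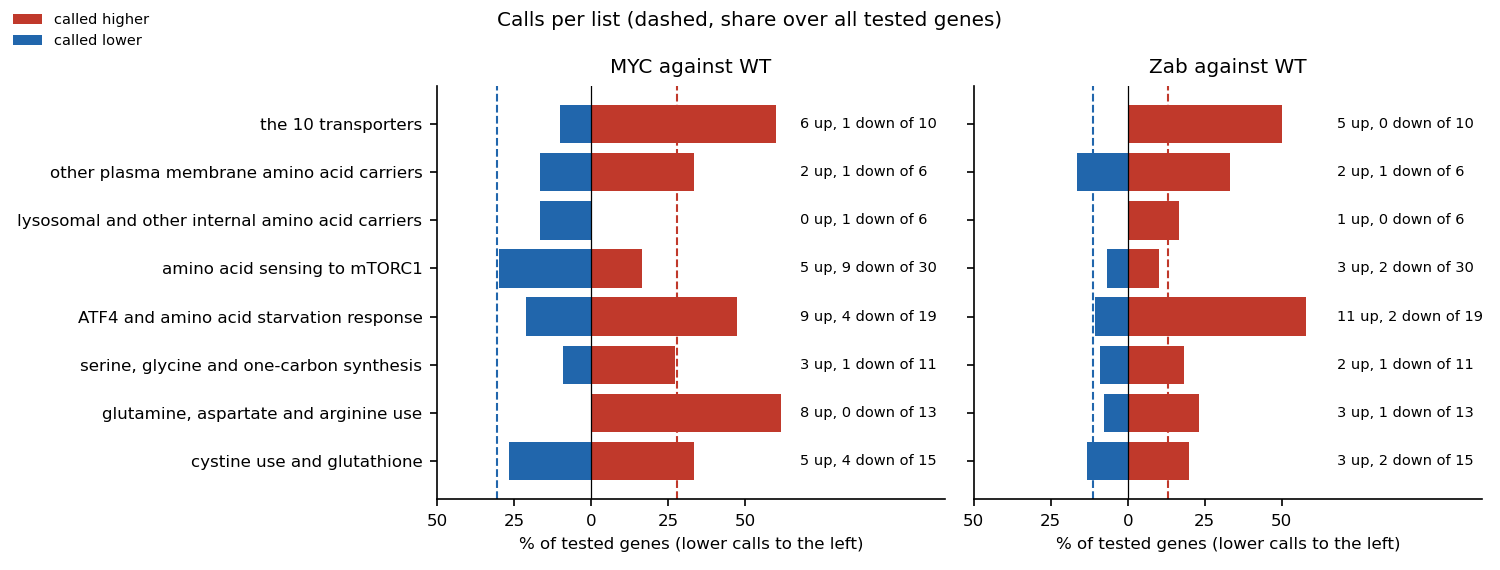
Share of tested genes called higher (right) and lower (left) in MYC versus WT and in Zab versus WT, for the transporters and 7 related lists; dashed lines give the share over all tested genes. In MYC versus WT the 10 transporters show 6 higher and 1 lower, where 27.8% and 30.4% of all genes were called in those directions.

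Sensors that report amino acids to the kinase complex mTORC1 showed 5 higher and 9 lower of 30 tested in MYC versus WT (median 0.001), which is 16.7% and 30% where 27.8% and 30.4% of all genes were called. SESN3, of the leucine-sensing Sestrin family, was -3.84 ± 0.35 SE (adjusted p 1.8e-15), SESN1 -1.21 ± 0.29 (0.00021) and the arginine sensor CASTOR1 -1.99 ± 0.41 (2.8e-05). MIOS (1.36 ± 0.22, 3.2e-07) and SEH1L (1.28 ± 0.18, 6.5e-09), subunits of GATOR2, were higher. In Zab versus WT 3 were higher and 2 lower (median -0.02), or 10% and 6.67% where 13.1% and 11.3% of all genes were called, so that in both comparisons the share was near or under that of all genes. Among the calls were SESN2 at 0.99 ± 0.20 (8.8e-05) and SESN3 at -1.29 ± 0.35 (0.004).

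Of the enzymes that use what the carriers bring in, those of glutamine, aspartate and arginine use had a larger share called higher with MYC than all genes, and both other lists shares near it. The shares of all genes called higher and lower were 27.8% and 30.4% in MYC versus WT, 13.1% and 11.3% in Zab versus WT, and 21.6% and 20.6% in Zab+MYC versus WT. Of 13 tested genes of glutamine, aspartate and arginine use, 8 (61.5%) were higher and 0 lower in MYC versus WT (median 0.44), 3 and 1 in Zab versus WT (0.23), and 6 and 0 in Zab+MYC versus WT (0.34). ODC1, which makes putrescine from ornithine, averaged 1529 ± 35.0 CPM in Zab+MYC, 2289 ± 36.1 CPM in MYC, 672 ± 20.2 CPM in Zab and 554 ± 1.79 CPM in WT (SD, n = 2 each), and was 4.12-fold higher in MYC relative to WT (adjusted p 3.8e-47). PPAT, which spends glutamine in purine synthesis, was 3.99-fold higher in MYC relative to WT (7.3e-13). Of 11 genes of serine, glycine and one-carbon synthesis, 3 (27.3%) were higher and 1 (9.09%) lower in MYC versus WT (median 0.23), led by MTHFD2 at 2.78-fold (2.3e-21) and with PHGDH at -0.63 ± 0.09 SE (6.6e-09). Of 15 genes of cystine use and glutathione, 5 (33.3%) were higher and 4 (26.7%) lower in MYC versus WT (0.14), with TXN (1.30 ± 0.08, 1.5e-24) and NQO1 (-1.36 ± 0.16, 1.1e-11) as the largest in each direction. In Zab versus WT these lists gave 2 higher and 1 lower (0.17) and 3 higher and 2 lower (0.01), HMOX1 leading the second (1.27 ± 0.22, 4.7e-06).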

How the data were processed

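RNA-seq of total RNA from 8 U2OS libraries was analysed, 2 per genotype. Per the labels' protocols, Trizol was used to extract RNA and an Abclonal kit to prepare libraries. The authors deposited 1 table of exon signal per library, for 19414 genes, that is tags times 1 scaling factor. The submitters' processing notes list HOMER 4.11.1, STAR and Trim Galore 0.6.6, and the builds hg19 and dm6. What dm6 served for and how the factor was set the sources used here do not say. Per the file headers, raw tags in exons of hg19 RefSeq coding genes were counted with analyzeRepeats of HOMER, which kept 1 transcript per symbol, the same in all libraries for 4 of the 10 carriers. All values (100%) were whole multiples of 1 step within 0.1 step. A tag was taken as 2 steps, an assumption: at 1 step exon tags would exceed the library total in the header by 1.21 to 1.52 times.

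Tags were scaled to CPM with TMM factors after filterByExpr, and log2(CPM + 2) of all 8 libraries was fitted in limma with a trend of variance on level, two-sided, with 4 residual degrees of freedom and a prior of 67.2 taken over all genes. Adjusted p-values are Benjamini-Hochberg over 9673 genes. Fold changes are on that scale, which understates low genes. The common dispersion in edgeR was 0.000172. Exact intervals cover counting error only, since tags without molecular identifiers are not independent molecules. Replicate numbers did not pair the libraries.

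The carriers and all lists were chosen with earlier results of these data known. All 10 carriers are named, and of each other list up to 3 called genes per direction with the largest change, with the 2 genes nearest in pattern to each carrier. The lists are other plasma membrane carriers, internal carriers, mTORC1 sensing, the ATF4 response, serine and one-carbon synthesis, glutamine, aspartate and arginine use, cystine use and glutathione, and cell type markers. Alternatives were RLE scaling, library totals, the deposited scale, other filters, pseudocounts of 1 and 5 CPM, edgeR, DESeq2, genes with 1 transcript, the libraries compared alone, a replicate block, and each library left out. They were run for the carriers and for the counts over all genes, the scalings also for ATF4, and none for the other lists. Both libraries of a genotype counted as 1 sample were added after seeing the data. Coordinates of genes are hg19, 1-based, and those of promoter windows GRCh38.p14. Software was Python 3.11.15 with matplotlib 3.10.9, scipy 1.17.1, numpy 2.4.6 and pandas 2.3.3, and R 4.3.3 with edgeR 4.0.16, DESeq2 1.42.0 and limma 3.58.1.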

Additional observations from a re-analysis of the deposited data

Results flagged for a closer look

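For 5 carriers the effect of MYC differed between cells with Zab and cells without it, by the interaction term in limma with Benjamini-Hochberg adjustment over all 9673 genes. Of all these genes 27.9% were called, 14.6% higher and 13.3% lower. Effects with Zab minus effects without Zab, on the log2 scale, were -1.46 for the leucine exchanger SLC7A5 (adjusted p 2.6e-12), -1.29 for its heavy chain SLC3A2 (1.8e-13), -1.27 for the arginine carrier SLC7A1 (0.00016), -0.92 for the glutamine exchanger SLC1A5 (1.7e-06) and -0.65 for SLC7A6 (0.03), whose tags cannot be told apart from those of SLC7A6OS. The call of SLC7A6 held in only 10 of 18 settings. MYC itself had an interaction of -2.16 and ADAR of -2.39, and their part in the carrier values was not tested.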

How the results depend on the processing

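Counts moved by over 1.5 times only in some settings. With genes counted on 1 transcript, which leaves 4 carriers, 3 carriers and 2831 genes were called in MYC versus WT, 3 and 1360 in Zab versus WT, 1 and 1044 in Zab+MYC versus MYC, 1 and 1447 in Zab+MYC versus Zab, 3 and 2190 in Zab+MYC versus WT, and 3 and 1496 for the interaction. DESeq2 called 889 genes in Zab versus WT, 702 in Zab+MYC versus MYC, 1 carrier and 926 genes in Zab+MYC versus Zab, 2284 genes in Zab+MYC versus WT and 1118 for the interaction. The deposited scale called 5018 genes in Zab versus WT, and 5 carriers and 3522 genes in Zab+MYC versus MYC, where edgeR also called 5 carriers. The main counts of genes were 5633 in MYC versus WT, 2363 in Zab versus WT, 1933 in Zab+MYC versus MYC, 2592 in Zab+MYC versus Zab, 4088 in Zab+MYC versus WT and 2695 for the interaction. With 1 library left out, 1 to 4 carriers and 1136 to 2213 genes were called in Zab+MYC versus MYC, and 2 to 4 carriers and 1712 to 2648 genes in Zab+MYC versus Zab. The causes were not tested, except that fewer genes were tested with 1 transcript.

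Among the carriers, the sign changed only for differences that were not called. SLC43A1 in MYC versus WT was 0.0247 with RLE scaling, 0.0604 with no filter, 0.0580 with the filter of 5 CPM, 0.0379 in edgeR, 0.0342 in DESeq2, 0.0311 with these libraries alone, and 0.0154 with both libraries as 1 sample. On the deposited scale Zab versus WT gave -0.25 for SLC7A6, -0.24 for SLC7A11 and -0.30 for SLC38A1, Zab+MYC versus MYC -0.19 for SLC38A1, Zab+MYC versus WT -0.30 for SLC38A2, and the interaction 0.12 for SLC38A1 (0.0212 with library totals). SLC7A11 in Zab+MYC versus MYC was 0.0408 with library totals, 0.0070 with 1 transcript and 0.0111 with these libraries alone, and SLC7A1 in Zab+MYC versus Zab was -0.0127 with library totals and -0.0080 with 1 transcript. With 1 library left out, values ran from -0.11 to 0.13 for SLC43A1 in MYC versus WT, in Zab versus WT from -0.0024 to 0.56 for SLC7A6 and from -0.31 to 0.14 for SLC38A2, in Zab+MYC versus MYC from -0.30 to 0.0136 for SLC7A1, from -0.10 to 0.0187 for SLC7A11 and from -0.0673 to 0.26 for SLC38A1, in Zab+MYC versus Zab from -0.14 to 0.19 for SLC7A1, from -0.0851 to 0.44 for SLC38A2 and from -0.0620 to 0.53 for SLC43A1, in Zab+MYC versus WT from -0.18 to 0.35 for SLC38A2, and for the interaction from -0.19 to 0.40 for SLC1A4, from -0.27 to 0.11 for SLC38A1 and from -0.10 to 0.49 for SLC43A1.

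With the replicate number as a replicate block the counts of carriers called were, in that order, 7, 5, 3, 4, 6 and 5, as without it, and those of genes 5650, 2434, 2010, 2657, 4151 and 2756. Libraries with the same number did not deviate together, with correlations of -0.02 to 0.01. DESeq2 gave no adjusted p for SLC43A1 in 3 pairwise comparisons and the interaction, or for SLC1A4 and SLC7A11 in Zab+MYC versus MYC. The fit to the libraries compared alone gives no value for the interaction. Of the other values of single carriers among the planned settings, 1063 kept their side of the threshold, 29 lost a call and 13 gained one. SLC7A11, SLC43A1 and SLC1A4 rest on so few tags that depth limits what can be seen.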
